A study of Mus musculus with 22 samples.

Results

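The 10 genes described here mark the macrophages of the splenic red pulp, recycle iron or code for complement C1q: Spic, Vcam1, Hmox1, Slc40a1, Adgre1, Cd163, Mrc1, C1qa, C1qb and C1qc. They were found by symbol, or by an older synonym such as Emr1 for Adgre1, among the 19057 named genes of the array. All 10 were present, with 18 probes, and all 10 had a probe above the filter on dim signals. Their log2 intensities were measured in whole spleen of 22 mice that overexpressed cyclin D1, a cell cycle regulator that is overexpressed in mantle cell lymphoma (MCL). In 14 of these mice Bim, a protein that promotes apoptosis and is encoded by Bcl2l11, was deleted in B cells, and 7 of the 14 developed MCL by histopathologic criteria. These diseased mice are set first against the 7 mice with Bim-deficient B cells that did not develop disease, and then against 8 mice with the transgene only, which did not develop disease either. Every mouse received sheep red blood cells (SRBC), a particulate antigen. Of the 7 diseased mice, 3 received SRBC weekly and nothing else, 3 also received irradiation and 1 also received pristane, a hydrocarbon oil that provokes inflammation. The same stimuli were given to 2, 3 and 2 of the non-diseased Bim-deficient mice and to 3, 3 and 2 of the transgene-only mice. Mice are written as A (SRBC alone), I (irradiation) or P (pristane) with the number of their title. No source used here names the strain, sex or age, the promoter of the transgene or the means by which Bim was deleted. By the design text there were 7 transgene-only mice, and by the titles 8, which were all kept.

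Red pulp macrophages engulf old red blood cells, break down their haemoglobin and return the iron to the blood. Spic is the transcription factor on which these cells depend. Its gene is induced by haem, which releases the repressor Bach1. Hmox1 codes for haem oxygenase 1, which opens the haem ring and frees the iron, and Slc40a1 for ferroportin, which exports the iron from the cell. Vcam1 is an adhesion molecule on these macrophages that Spic controls. Adgre1 codes for the surface protein F4/80, Cd163 for a receptor of haemoglobin bound to haptoglobin and Mrc1 for the mannose receptor. C1qa, C1qb and C1qc code for the chains of C1q, which binds antibody complexes and dying cells and is made mostly by macrophages.

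Promoter sequences were taken from RefSeq on the mouse build GRCm38.p6 and were found for 5 of the 10 genes, namely Spic, Cd163, Mrc1, C1qb and C1qc. Windows of 300 bases, with 250 before the gene's start and 50 after it, were searched on both strands for the PU box GAGGAA (a core that Spi1, the factor PU.1, and Spic can bind), for the antioxidant response element TGACNNNGC (of the kind that Bach1 occupies) and for the E-box CACGTG. These 3 motifs occurred in 28.3%, 12.4% and 7.15% of the 32851 promoters searched. The 250 bases before the start are shown for C1qb and C1qc, whose levels varied together over the mice, and for Spic, whose median was highest in the diseased mice, 5′ to 3′ on the strand of the gene. Capitals mark a motif match on either strand. C1qb lies at chr4:136886201-136886450 (minus strand), C1qc at chr4:136892915-136893164 (minus strand) and Spic at chr10:88683024-88683273 (minus strand). The C1qc window counts from a start inside the gene's recorded span, which reaches 136892936. Its last printed bases therefore lie within that span.
C1qb: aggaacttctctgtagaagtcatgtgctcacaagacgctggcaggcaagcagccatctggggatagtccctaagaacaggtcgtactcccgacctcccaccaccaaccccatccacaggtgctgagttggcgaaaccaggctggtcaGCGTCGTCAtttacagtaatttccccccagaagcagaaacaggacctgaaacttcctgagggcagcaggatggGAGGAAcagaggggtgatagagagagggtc
C1qc: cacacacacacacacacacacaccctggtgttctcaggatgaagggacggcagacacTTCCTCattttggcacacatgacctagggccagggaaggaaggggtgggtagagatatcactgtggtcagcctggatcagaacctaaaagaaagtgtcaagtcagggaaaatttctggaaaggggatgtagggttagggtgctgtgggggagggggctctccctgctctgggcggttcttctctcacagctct
Spic: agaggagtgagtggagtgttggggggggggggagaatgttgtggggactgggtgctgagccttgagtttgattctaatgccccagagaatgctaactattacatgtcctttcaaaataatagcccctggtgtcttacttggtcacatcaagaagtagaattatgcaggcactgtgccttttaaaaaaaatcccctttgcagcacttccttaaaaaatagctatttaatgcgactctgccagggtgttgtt
The C1qb window held a PU box on the gene's strand, 30 bases before the start, and an antioxidant response element on the other strand at base -103. The C1qc window held a PU box on the other strand at base -193. The Mrc1 window held 3 matches to the PU box, at bases -180, -167 and -35 on the other strand. None of the 3 motifs occurred in the Spic or Cd163 windows as these letters. A match in so common a motif describes the sequence only.

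1 mouse stood apart from the other 21 in most of these genes. In transgene-only mouse P_1, Slc40a1 had a log2 intensity of 8.47, against 11.55 to 12.64 in the other mice. Hmox1 was at 7.34, against 8.62 to 10.06, and Spic at 8.02, against 8.49 to 10.06. Adgre1 (6.96), Cd163 (6.46) and Mrc1 (7.31) were also at their lowest level of the 22 mice there. The C1q genes did not share this pattern, and C1qb, at 11.22, was higher in only 1 other mouse. The same mouse was close to the array median of 6.55 for the spleen's developmental transcription factors Nkx2-3 (6.56, against 8.15 to 9.03 in the others) and Tcf21 (6.42, against 7.37 to 9.05), while Tlx1 and Nkx3-2, the other 2 such factors looked at, were near the array median in every mouse. It was below every other mouse in 8 of 10 erythroid genes and 9 of 10 genes of monocytes and neutrophils. It was inside the range of the others in all 6 B cell genes. Of the red pulp macrophage genes and phagocytic receptors outside the 10 members, 5 were below every other mouse and 16 were within the range. All 5 genes of marginal zone and metallophilic macrophages and all 7 dendritic cell genes were within it too. Its Glycam1, a ligand made by the high endothelial venules of lymph nodes, was at 11.97, against 6.39 to 9.07, and the lymphatic marker Lyve1 was at 7.82, against 6.51 to 6.85. Of 5 lymph node and lymphatic genes 4 were above all other mice, and Fut7 lay within their range. Of the 4, Chst4 (6.83, against at most 6.69) and Prox1 (6.69, against at most 6.68) exceeded the others narrowly. Both were close to the array median, where little signal is measured. The developmental and lymph node genes were picked after the values had been seen. The label of the sample is spleen, and the source of its RNA was not tested, so the differences it moves are given with and without it.

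**Figure D1:**
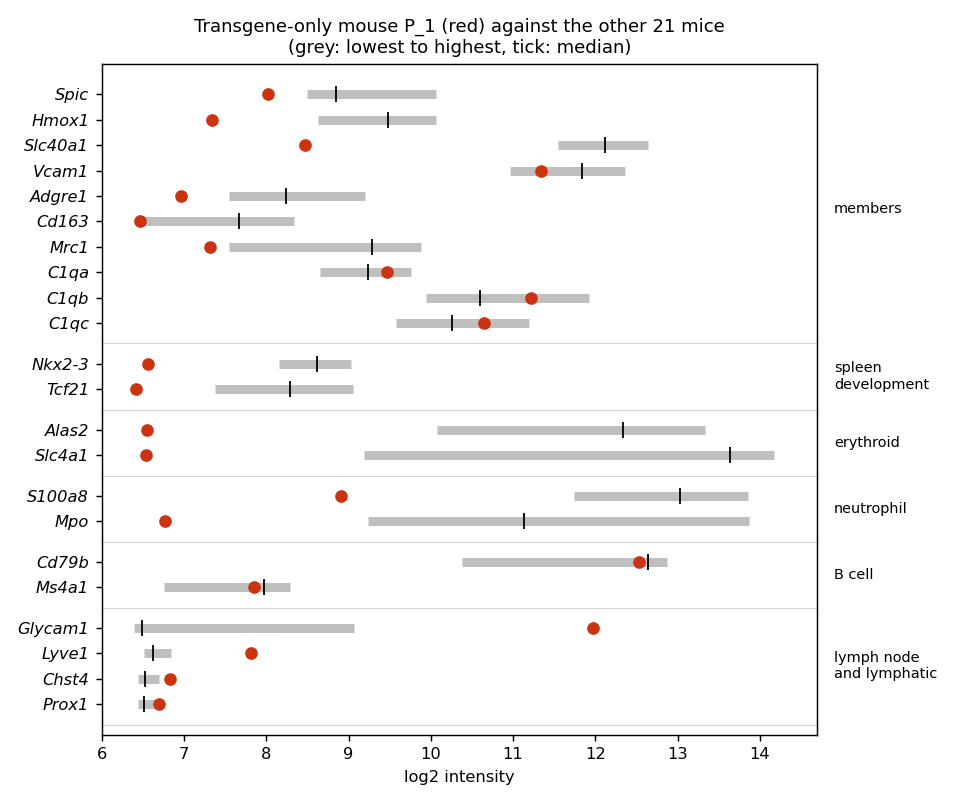
Log2 intensity of the 10 genes and of marker genes in transgene-only mouse P_1 (red) against the range (grey bar, lowest to highest) and median (black tick) of the other 21 mice. The red points of Spic, Hmox1, Slc40a1, Adgre1, Cd163, Mrc1, Nkx2-3, Tcf21 and the erythroid and neutrophil genes lie below the bars. Those of Glycam1 and Lyve1 lie above them, and those of Chst4 and Prox1 lie narrowly above them, close to the array median.

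Among the other 21 mice Vcam1 lay between 10.96 and 12.36, Slc40a1 between 11.55 and 12.64 and Mrc1 between 7.55 and 9.88, all above the array median. Cd163 lay between 6.52 and 8.33, its lowest value, in diseased mouse I_1, being just below the array median. The targeted genes checked the labels only in part. Bcl2l11 was at 7.64 to 8.88 in diseased mice, against 7.62 to 7.95 in non-diseased Bim-deficient mice and 7.88 to 8.52 in transgene-only mice, and none of the 3 differences passed the test. The deletion concerns B cells alone, and whether the probe lies in the deleted part was not tested. Ccnd1, the gene of cyclin D1, lay between 9.39 and 11.01 in all 3 groups. In whole spleen, fewer macrophages and less RNA per macrophage cannot be told apart.

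The question named by the study is how diseased mice differ from non-diseased mice with the same genotype. None of the 10 genes passed the test in this comparison (limma, two-sided, adjusted p under 0.05 over all 20463 features), where 1.83% of all features did, 374 in number. Spic and Hmox1 had the largest differences, both with higher values in diseased mice, and the other genes differed little. Across the 10 genes 6 were higher and 4 lower in diseased mice, with a median difference of 0.03 on the log2 scale, against a median of -0.004 over all features. Without transgene-only mouse P_1, which enters this comparison through the shared spread alone, 1.62% of features (332) passed and again none of the 10.

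**Figure D2:**
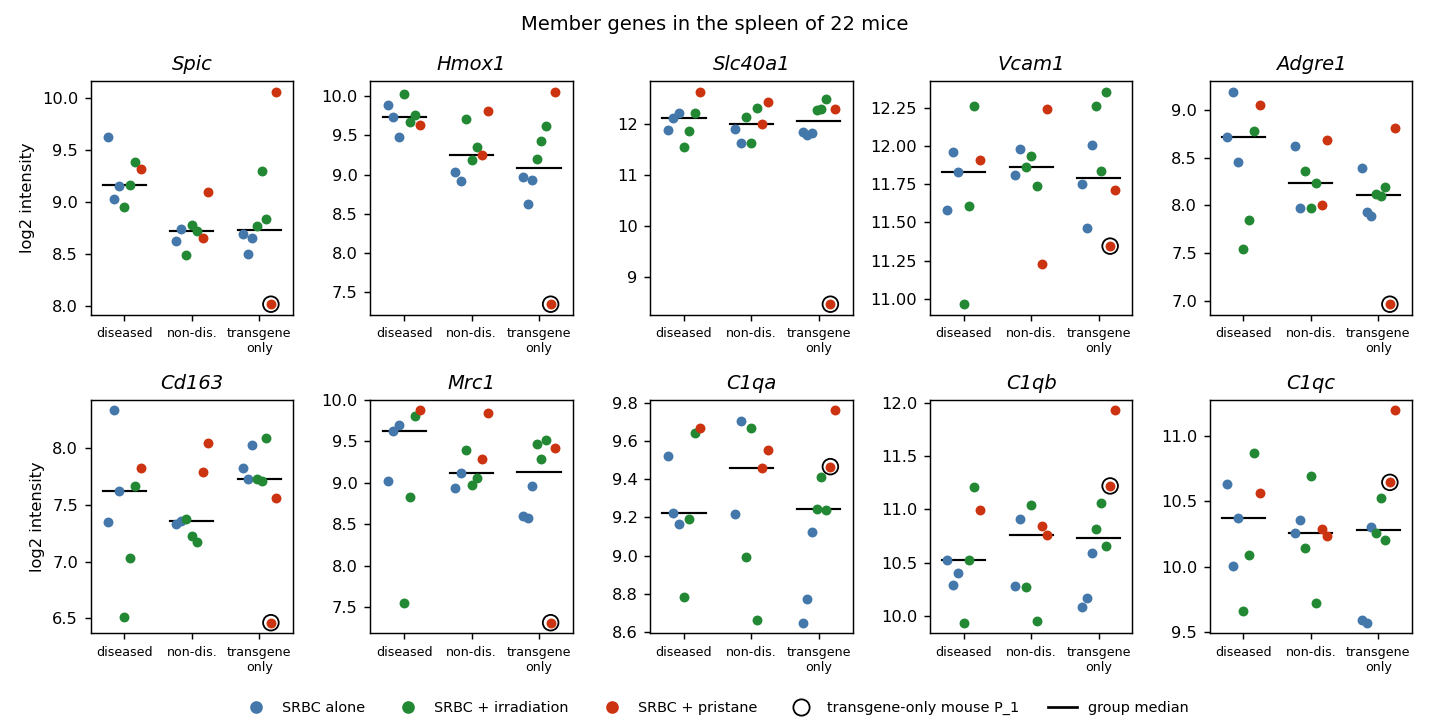
Log2 intensity of each gene in each mouse, by group (diseased, non-diseased Bim-deficient, transgene only), with a line at the group median. Colours give the stimulus and a ring marks transgene-only mouse P_1, the lowest point for Spic, Hmox1, Slc40a1, Adgre1, Cd163 and Mrc1. In the panels of Spic and Hmox1 all 7 diseased mice sit above the median lines of the other groups.

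Spic ranged from 8.95 to 9.63 in the 7 diseased mice, with a median of 9.17. It ranged from 8.49 to 9.10, with a median of 8.73, in the 7 non-diseased Bim-deficient mice, and from 8.02 to 10.06, with a median of 8.74, in the 8 transgene-only mice. All 7 diseased mice were above the median of the non-diseased Bim-deficient mice and 5 of the 7 were above all of them, so these groups overlapped in few mice. Against the non-diseased Bim-deficient mice the difference was 0.50 ± 0.21 (SE; 95% interval 0.07 to 0.93), with a limma p of 0.0253 and an adjusted p of 0.248. The two-sided exact permutation test of this probe alone gave p = 0.00175 over 3432 splits, unadjusted. Across the 54 exact tests of the 18 probes in the 3 group comparisons, 8 had an unadjusted p under 0.05 and none passed after Benjamini-Hochberg adjustment over the 54. The difference ran in the same direction within each stimulus, at 0.58 for SRBC alone, 0.50 with irradiation and 0.44 with pristane, the last resting on 1 diseased and 2 non-diseased mice. Without the pristane mice it was 0.55 ± 0.13 and passed, with an adjusted p of 0.0361, in a fit where 3.94% of all features passed. It also passed without both pristane mice of the transgene-only group, at 0.50 and an adjusted p of 0.0331, where 2.03% of all features did; that fit was chosen after seeing the data. A second Spic probe had a median of 7.70 in diseased mice and 7.33 in non-diseased Bim-deficient mice, and a difference of 0.28 (exact permutation p = 0.0309).

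Hmox1 ranged from 9.48 to 10.03 in the diseased mice, with a median of 9.74, against 8.91 to 9.82 with a median of 9.25 in the non-diseased Bim-deficient mice. In the transgene-only mice it ranged from 7.34 to 10.06 with a median of 9.08, and from 8.62 to 10.06 with a median of 9.20 without mouse P_1. Every diseased mouse was above the median of each other group, but the ranges overlapped. The difference from non-diseased Bim-deficient mice was 0.42 ± 0.28 (adjusted p 0.526), and 0.42 ± 0.18 without mouse P_1 (adjusted p 0.280). It was 0.73 for SRBC alone, 0.40 with irradiation and 0.10 with pristane.

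None of the remaining genes of iron export, adhesion and surface recognition passed the test between diseased and non-diseased Bim-deficient mice. Slc40a1 had medians of 12.11 in diseased and 12.01 in non-diseased Bim-deficient mice, and a difference of 0.06 ± 0.43 (adjusted p 0.972), with a 95% interval of -0.84 to 0.96. Without transgene-only P_1 in the shared spread the difference was 0.06 ± 0.16. Vcam1 ranged from 10.96 to 12.26 in diseased mice and from 11.23 to 12.24 in non-diseased Bim-deficient mice, with a difference of -0.10 (adjusted p 0.870). Adgre1 had medians of 8.72 in diseased and 8.24 in non-diseased Bim-deficient mice, and a difference of 0.25 ± 0.26 (adjusted p 0.730). It was spread more widely in diseased mice, from 7.54 to 9.20, than in non-diseased Bim-deficient mice, from 7.97 to 8.69; this difference in spread was not tested. Mrc1 and Cd163 were spread likewise, at 7.55 to 9.88 and 6.52 to 8.33 in diseased mice, against 8.94 to 9.84 and 7.18 to 8.04 in non-diseased Bim-deficient mice, with differences of -0.03 and 0.01. The low end was the same animal for these genes: diseased mouse I_1 had the lowest Vcam1 of all 22 mice and the lowest Adgre1, Cd163 and Mrc1 apart from transgene-only P_1. Of the other probes, a second Adgre1 probe differed by 0.31 (exact permutation p 0.0927), and another, close to the array median, ranged from 6.45 to 6.75 in diseased mice and from 6.48 to 6.57 in non-diseased Bim-deficient mice. Its difference was 0.13 (limma p 0.00183, adjusted p 0.0986 over all probes, exact permutation p 0.0134), with 6 of 7 diseased mice above all of the others. The remaining probes of Vcam1, Slc40a1 and Cd163 were also close to the array median, with 1 Vcam1 probe reaching 7.04 in diseased mouse I_1. The direction for Mrc1 and Adgre1 was not the same in all stimuli. Mrc1 differed by 0.42 for SRBC alone and by -0.42 with irradiation, and Adgre1 by 0.49 and -0.13.

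The C1q genes overlapped nearly completely between these groups. C1qa had medians of 9.23 in diseased and 9.46 in non-diseased Bim-deficient mice. C1qb had medians of 10.52 in diseased and 10.76 in non-diseased Bim-deficient mice, and C1qc of 10.38 in diseased and 10.26 in non-diseased Bim-deficient mice. The differences were -0.01 for C1qa, -0.03 for C1qb and 0.07 for C1qc (adjusted p 0.991, 0.978 and 0.930). They were within the spread between mice, as C1qb had an SD of 0.43 in diseased mice and 0.41 in non-diseased Bim-deficient mice.

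Set against transgene-only mice, in a comparison that shares the diseased mice with the one above, the diseased mice had none of the 10 genes past the test, where 5.22% of all features passed (1069). Without mouse P_1 this share was 4.42%, and none of the 10 passed. Hmox1 had the largest difference, 0.72 ± 0.27 (95% interval 0.16 to 1.28, limma p 0.0139, adjusted p 0.127, unadjusted exact permutation p 0.0202), and 0.48 ± 0.18 without P_1 (adjusted p 0.145). Spic differed by 0.38 ± 0.20 (adjusted p 0.309), and by 0.26 ± 0.18 without P_1. Slc40a1 changed sign with that mouse, at 0.41 ± 0.42 with it and -0.04 ± 0.16 without it. Vcam1 differed by -0.11 in its main probe and by 0.15 in a dimmer second probe. The second probe had an unadjusted exact permutation p of 0.00373, and 0.0951 after adjustment over the 54 tests. Over the 10 genes 7 were higher and 3 lower in diseased mice, with a median of 0.21, and 6 were higher with a median of 0.08 without P_1.

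Whether Hmox1 and Spic counted as called here depended on single mice and on weights. Both passed when arrays were weighted by their fit to the model, at 0.75 for Hmox1 (adjusted p 0.0380) and 0.51 for Spic (adjusted p 0.0387), with 12.8% of all features. Both passed without the pristane mice, at 0.63 (adjusted p 0.0189) and 0.42 (adjusted p 0.0376), with 13.1%, and without transgene-only P_2 alone, at 0.87 (adjusted p 0.0332) and 0.55 (adjusted p 0.0213), with 9.58%. Without both P_1 and P_2, Hmox1 differed by 0.62 (adjusted p 0.0237) and Spic by 0.44 (adjusted p 0.0346), with 8.22%. Transgene-only P_2 was the highest of all 22 mice in Spic (10.06), Hmox1 (10.06), C1qa (9.76), C1qb (11.93) and C1qc (11.20), whereas P_1 was the lowest in Spic and Hmox1.

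Non-diseased Bim-deficient mice and transgene-only mice were compared last, and 0% of all features passed (679 had an unadjusted limma p under 0.05). The differences of the 10 genes lay between -0.23 for C1qb and 0.35 for Slc40a1, with the sign of Slc40a1 set by mouse P_1. Without P_1, Cd163 had the largest difference, at -0.34, with 7.18 to 8.04 in non-diseased Bim-deficient mice against 7.56 to 8.09 in transgene-only mice. The groups overlapped in all 10 genes in each of the 3 comparisons. Groups without overlap were found for 0.445% of all features between diseased and non-diseased Bim-deficient mice, 1.06% between diseased and transgene-only mice and 0.00977% between non-diseased Bim-deficient and transgene-only mice.

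**Figure D3:**
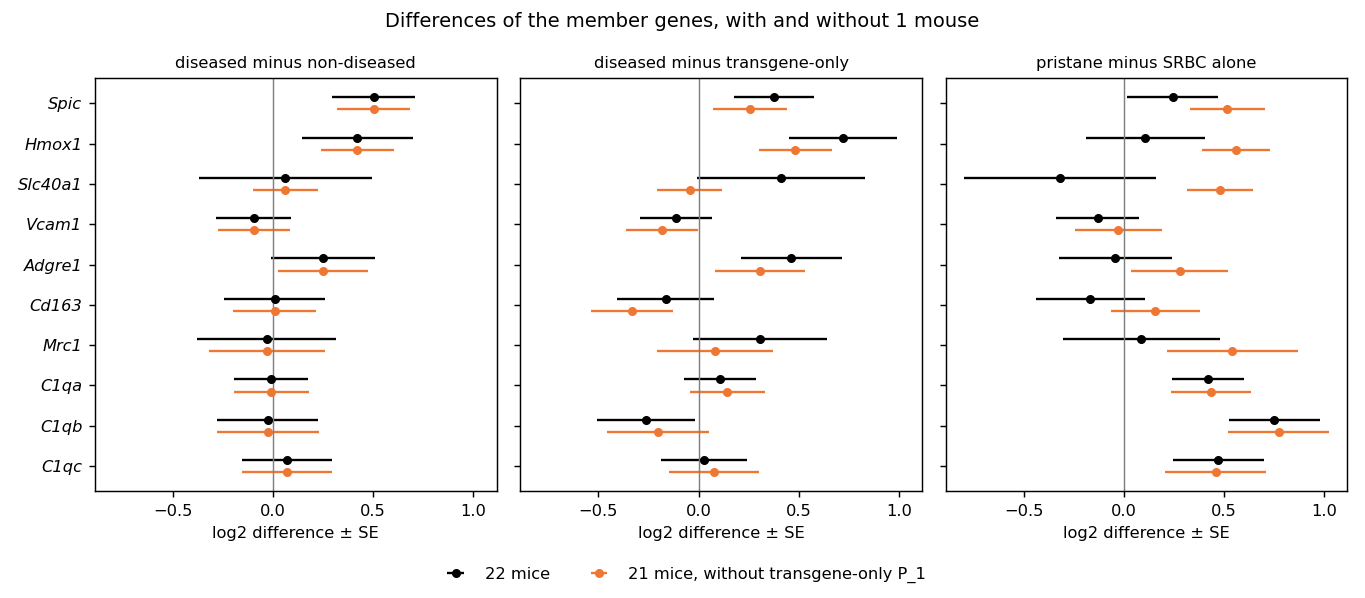
Log2 difference ± SE of each gene in the comparisons of diseased with non-diseased Bim-deficient mice, diseased with transgene-only mice and pristane with SRBC alone, in 22 mice (black) and without transgene-only mouse P_1 (orange). Slc40a1, Hmox1 and Spic move to the right in the pristane comparison without that mouse, to 0.48, 0.56 and 0.52.

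The stimuli were compared within an additive model of group and stimulus. In the comparison of irradiation with SRBC alone, none of the 10 genes and 0% of all features passed (958 had an unadjusted limma p under 0.05). Hmox1 ranged from 9.18 to 10.03 in irradiated mice with a median of 9.62, against 8.62 to 9.89 with a median of 8.996 in mice with SRBC alone. Its difference was 0.36 ± 0.25 (adjusted p 0.998), and 0.38 ± 0.13 without P_1 (unadjusted limma p 0.0108, adjusted p 0.849). Adgre1 and Cd163 had negative differences, -0.27 and -0.30, that did not pass.

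In the comparison of pristane with SRBC alone, 0.0147% of all features passed in the 22 mice, which is 3 features, and none of the 10 genes. C1qb had the largest difference. It ranged from 10.76 to 11.93 in the 5 pristane mice with a median of 10.99, against 10.08 to 10.91 with a median of 10.35 in the 8 mice with SRBC alone. The pristane mice were mostly above the others, with a small overlap. The difference was 0.75 ± 0.23 (95% interval 0.27 to 1.23, limma p 0.00386, adjusted p 0.158), and 0.77 ± 0.25 without P_1 (adjusted p 0.0691). C1qa was at 9.67 in the diseased pristane mouse, at 9.46 and 9.55 in the non-diseased Bim-deficient ones and at 9.47 and 9.76 in the transgene-only ones, against 8.65 to 9.71 with SRBC alone. Its difference was 0.42 ± 0.18 and that of C1qc 0.47 ± 0.23 (adjusted p 0.274 and 0.332). Without P_1 these were 0.43 ± 0.20 and 0.46 ± 0.25 (adjusted p 0.201 and 0.296).

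The genes of haem breakdown and iron export turned on transgene-only P_1 in this comparison. Slc40a1 was at 12.64 in the diseased pristane mouse, at 12.01 and 12.43 in the non-diseased Bim-deficient ones and at 8.47 and 12.30 in the transgene-only ones. Mice with SRBC alone ranged from 11.63 to 12.22. The difference was -0.32 ± 0.48 (adjusted p 0.801) with P_1 and 0.48 ± 0.16 (adjusted p 0.0818) without it. Hmox1 in the same order was at 9.64, at 9.25 and 9.82 and at 7.34 and 10.06, against 8.62 to 9.89 with SRBC alone. Its difference was 0.11 ± 0.30 (adjusted p 0.908) with P_1 and 0.56 ± 0.17 (adjusted p 0.0532) without it. Spic was at 9.32, at 8.66 and 9.10 and at 8.02 and 10.06, against 8.50 to 9.63, and differed by 0.24 ± 0.23 (adjusted p 0.649) with P_1 and by 0.52 ± 0.19 without it (adjusted p 0.0970). Every pristane mouse other than P_1 was above the median of the mice with SRBC alone in Slc40a1 and Hmox1, while the ranges still overlapped.

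Without P_1, 9 of the 10 genes were higher in pristane mice, with a median difference of 0.47, against 6 of 10 and a median of 0.10 with it. None of the 10 passed, in a fit where 6.92% of all features passed (1417) and their median difference was -0.002. P_1 was singled out after its values had been seen. It was the lowest of the 22 mice in Spic, Hmox1, Slc40a1, Adgre1, Cd163 and Mrc1, so leaving it out raised their pristane differences. Transgene-only P_2, which was kept, had a lower mean correlation with the other arrays (0.947) than P_1 (0.956). Without both P_1 and diseased I_1, Slc40a1 passed at 0.49 ± 0.14 (adjusted p 0.0415), with 7.09% of all features, a fit chosen after seeing the data. Without both transgene-only pristane mice, C1qb differed by 0.50 (adjusted p 0.341), Hmox1 by 0.34 (adjusted p 0.302) and Slc40a1 by 0.55 (adjusted p 0.146).

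Pristane set against irradiation gave none of the 10 genes, with 0.279% of all features in 22 mice and 8.85% without P_1. C1qb differed by 0.54 ± 0.22 (adjusted p 0.223) and C1qa by 0.39 ± 0.18 (adjusted p 0.260) in the 22 mice, and by 0.56 ± 0.24 and 0.40 ± 0.19 without P_1 (adjusted p 0.168 and 0.213). The test of whether the group differences depended on the stimulus called none of the 10 genes and 0% of all features, with 1360 at an unadjusted limma p under 0.05, and 0.889% of features without P_1, again none of the 10. Without transgene-only P_2, which leaves P_1 as the only pristane mouse of its group, this test called Slc40a1 (F = 51.9, adjusted p 8.90e-05) and Hmox1 (F = 14.1, adjusted p 0.0228), with 1.56% of all features.

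The wider pathway was read from fixed gene lists, beside shares of 1.83% of all features called between the Bim-deficient groups and 5.22% between diseased and transgene-only mice. Between diseased and transgene-only mice, 1 call in the list of 20 is near the share of 5.22%. Between the Bim-deficient groups, 1 call in the list of 24 or of 12 is above the share of 1.83%, and this excess was not tested. Against transgene-only mice, 1 gene rose and 1 fell in each of the lists of 24 and 12. That is above the share of 5.22%, and the excess was not tested. In the lists of 5, 6 and 7 genes a single call is above these shares through the small size alone. Among 24 measured genes of haem and iron handling, 1 rose and none fell in diseased mice against non-diseased Bim-deficient mice. That gene was Hmox2, the haem oxygenase that is present in most cells without induction. It ranged from 8.71 to 9.51 in diseased mice with a median of 9.07, against 8.30 to 8.95 with a median of 8.58 in non-diseased Bim-deficient mice, and the difference was 0.55 ± 0.12 (limma adjusted p 0.0210). It passed in 20 of 22 fits that each left out 1 mouse and missed the threshold without diseased A_1 or non-diseased P_2, with an adjusted p of at most 0.0548. Against transgene-only mice Hmox2 rose by 0.47 (limma adjusted p 0.0181) and passed in all 22 such fits. Bach1, the repressor that haem removes from Hmox1 and Spic, fell by 0.27 in diseased mice against transgene-only mice (limma adjusted p 0.0253), and missed the threshold without diseased A_2 or A_3.

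Of 20 other red pulp macrophage genes and phagocytic receptors, none passed in the comparison of the Bim-deficient groups, and Clec4n, the lectin Dectin-2, rose by 0.75 ± 0.16 against transgene-only mice (limma adjusted p 0.0105). Of the 5 markers of marginal zone and metallophilic macrophages, the scavenger receptor Marco rose in diseased mice against non-diseased Bim-deficient mice by 0.78 ± 0.18 (limma adjusted p 0.0297). It ranged from 7.65 to 8.65 in diseased mice, against 6.98 to 8.12, and passed in 15 of 22 fits without 1 mouse. It missed the threshold without diseased I_1, A_1 or A_2 or non-diseased A_1, P_1, P_2 or I_2. Among 12 complement genes other than C1q, Cr1l, a regulator that protects cells from complement, rose by 0.27 and 0.23 against non-diseased Bim-deficient and transgene-only mice (limma adjusted p 0.0197 and 0.0185). C4b, which is cleaved downstream of C1q, fell by 1.09 against transgene-only mice (limma adjusted p 0.0361). C4b passed in 13 of 22 fits without 1 mouse, and missed the threshold without diseased I_1, A_1, A_2 or A_3 or transgene-only A_1, A_2, P_1, I_1 or I_3; without P_1 the limma adjusted p was 0.0665. In the same comparison Cr2, the complement receptor of B cells, fell by 0.49 (limma adjusted p 0.0218). It came from the list of 6 B cell genes, of which 3 were higher and 3 lower and no other passed. Xcr1, a dendritic cell receptor, had a difference of 0.12 (limma adjusted p 0.0198), from a probe at 6.45 to 6.76, close to the array median, where little signal is measured. Of the 7 dendritic cell genes 3 were higher and 4 lower, and no other passed.

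Erythroid genes and genes of other blood cells varied beside these results. All 9 measured erythroid genes were higher in diseased mice in both comparisons, with median differences of 0.71 against non-diseased Bim-deficient mice and 1.31 against transgene-only mice (0.99 without P_1), and none passed the test. The erythroid score, which averages these genes after each was centred on its own mean over the mice, ranged from -0.24 to 1.29 in diseased mice with a median of 0.93. It ranged from -1.65 to 1.08 with a median of 0.55 in non-diseased Bim-deficient mice and from -3.26 to 1.53 with a median of -0.05 in transgene-only mice. With this score as a covariate, the difference of Hmox1 between diseased and non-diseased Bim-deficient mice was 0.19 ± 0.16 (adjusted p 0.629) and that of Spic 0.37 ± 0.17 (adjusted p 0.282). Against transgene-only mice the same fit gave 0.23 ± 0.17 for Hmox1 and 0.10 ± 0.18 for Spic. Without P_1 the covariate fit gave 0.26 ± 0.12 for Hmox1 and 0.40 ± 0.17 for Spic against non-diseased Bim-deficient mice, and 0.23 ± 0.13 and 0.10 ± 0.18 against transgene-only mice, none past the test. All 10 genes of monocytes and neutrophils were lower in diseased than in non-diseased Bim-deficient mice, with a median of -0.65 and none past the test.

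In the pristane comparison none of the 22-mouse fits called a gene of these lists, and the following counts without P_1 were chosen after seeing the data. In that fit 6.92% of all features passed. Among 24 genes of haem and iron handling 6 rose with pristane and 1 fell. Those that rose were Hp (haptoglobin, which binds free haemoglobin) by 1.89, Blvrb by 1.195 and Blvra by 0.53 (reductases of biliverdin, the product of haem oxygenase), Slc48a1 (a haem transporter) by 0.79, Slc11a2 (an importer of iron) by 0.35 and Steap3 (an iron reductase) by 0.30, with limma adjusted p-values of 0.0104 to 0.0475. Hmox2 fell by 0.41. Among 20 other red pulp macrophage genes 5 rose, namely Sirpa, the inhibitory receptor for the signal CD47 on red blood cells, by 0.57, Fcgr1 and Fcgr4, receptors for antibody, by 0.52 and 1.75, Pparg by 0.99 and Treml4 by 0.37. Genes of monocytes and neutrophils were higher in 10 of 10, with 5 past the test and a median of 1.79, erythroid genes were higher in 9 of 9 with a median of 1.53 and none past the test, and 4 of 6 B cell genes fell. The part of these cell types in the list counts was not tested. Without transgene-only P_2 as well, which leaves 3 pristane mice, all 12 genes of these iron and macrophage lists had the same sign. Of the 12, 2 passed, Sirpa and Fcgr1 (limma adjusted p 0.0110 and 0.0119). The 12 genes had been picked in the fit without P_1, which held the same 3 pristane mice. A kept sign is therefore no separate support, and the genes called there in the other lists all kept their sign too. Among those that no longer passed, Hp differed by 1.64 (limma adjusted p 0.0652), Blvrb by 1.06, Slc48a1 by 0.67 and Hmox2 by -0.40, Pparg by 0.68 and Fcgr4 by 1.18.

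Several of the 10 genes varied together over mice, and whether they form separate sets was not tested. Over the 22 mice, 55 relations among the 10 genes and the erythroid score were computed, with two-sided permutation tests adjusted over the 55. The genes of the C1q chains were the closest set. C1qa and C1qb had a Pearson r of 0.86 (Spearman rho 0.87, permutation p 1e-05, the smallest possible, adjusted 0.00011), and r was 0.83 without the 2 mice farthest from the median and 0.86 without P_1. Here and below, the 2 farthest mice are those farthest from the median of the first-named gene, whatever their level in the other. C1qa and C1qc had an r of 0.89 (rho 0.81), 0.85 without the 2 farthest mice and 0.89 without P_1. C1qb and C1qc had an r of 0.90 (rho 0.85), 0.84 without the 2 farthest mice and 0.89 without P_1, and both pairs had the same permutation p of 1e-05 for r. Within the diseased mice, the non-diseased Bim-deficient mice and the transgene-only mice, each of these pairs had an r of at least 0.86. Spic also varied with C1qa, C1qb and C1qc, at an r of 0.44, 0.42 and 0.50 over the 22 mice. Without P_1 these values were 0.57, 0.63 and 0.69. Slc40a1 had an r of -0.03, -0.13 and -0.08 with the same genes over the 22 mice.

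**Figure D4:**
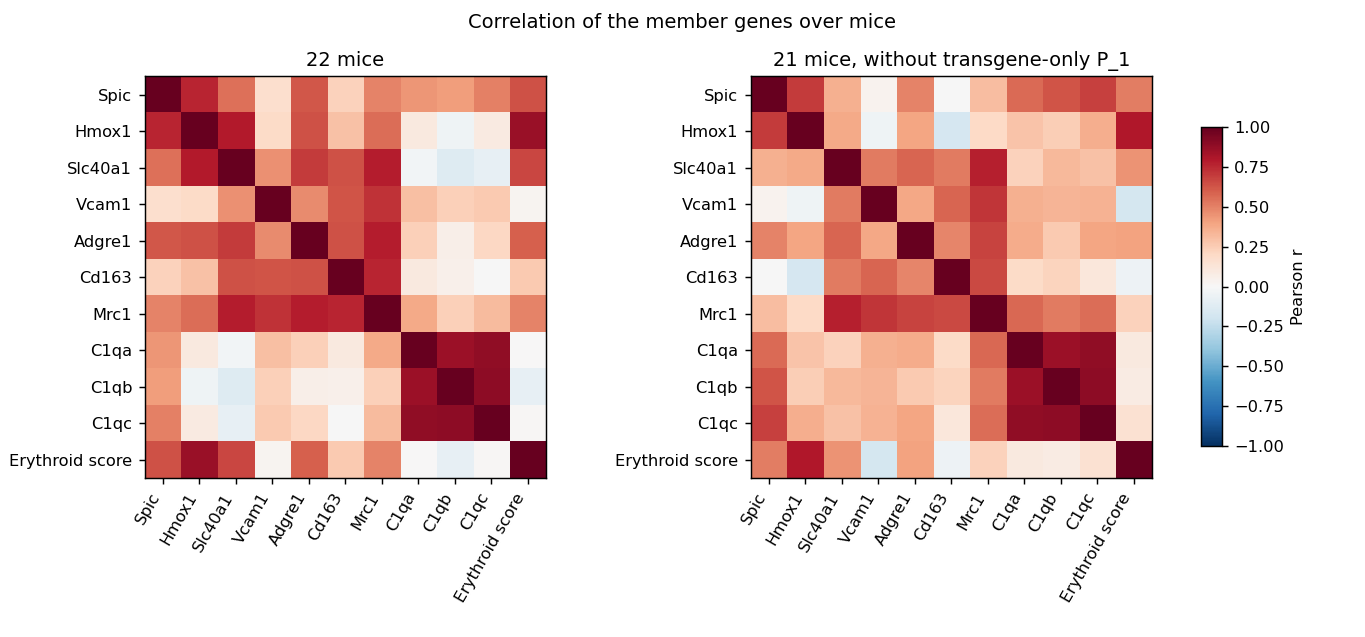
Pearson r over mice between the 10 genes and the erythroid score, in 22 mice (left) and without transgene-only mouse P_1 (right), with red for positive and blue for negative values. The C1q genes form a block of 0.86 to 0.90 in the left panel that is little altered in the right panel, while the square of Hmox1 and Slc40a1 is at 0.79 on the left and 0.38 on the right.

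Hmox1 varied with the erythroid score, with an r of 0.86 (rho 0.79, permutation p 1e-05 for both, adjusted 0.00011 for r), 0.75 without the 2 farthest mice and 0.80 without P_1. Within groups r was 0.15 in diseased mice, 0.81 in non-diseased Bim-deficient mice and 0.91 in transgene-only mice. In the 7 diseased mice Hmox1 spanned only 9.48 to 10.03, so the low r there cannot show that the relation was absent. Spic and Hmox1 had an r of 0.76 (permutation p 5e-05, adjusted 0.000393), a rho of 0.74 (permutation p 0.00013), and an r of 0.77 without the 2 farthest mice and 0.70 without P_1. The 2 farthest mice in Spic were transgene-only P_2 and diseased A_1, so the 0.77 still included P_1, the lowest mouse in Hmox1. Their r was 0.92 within the mice with SRBC alone and 0.25 within the irradiated mice. Within groups the r of Spic and Hmox1 was -0.01 in diseased mice, 0.30 in non-diseased Bim-deficient mice and 0.87 in transgene-only mice (7, 7 and 8 mice). The same limit of few mice and a narrow range of Hmox1 applies to the diseased mice here. The transgene-only values of 0.91 and 0.87 include P_1 and P_2. These were the lowest and highest of the 22 mice in Spic, Hmox1 and the erythroid score, and no value within the group without them is given. Over the 22 mice the C1q genes had an r of -0.08 to 0.01 with the erythroid score (permutation p 0.706 to 0.974). The sign was not the same in all groups, as r was -0.59 for C1qa, -0.81 for C1qb and -0.54 for C1qc within diseased mice, -0.38, -0.24 and -0.41 within non-diseased Bim-deficient mice, and 0.27, 0.31 and 0.26 within transgene-only mice. Within the 9 irradiated mice it was -0.83 for C1qa, -0.81 for C1qb and -0.81 for C1qc. These values within groups were not tested.

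Slc40a1 and Mrc1 had an r of 0.79 (rho 0.81, permutation p 1e-05 for r and 2e-05 for rho), which was 0.76 without the 2 farthest mice, 0.78 without P_1 and 0.89 in diseased, 0.67 in non-diseased Bim-deficient and 0.94 in transgene-only mice. Vcam1 and Mrc1 had an r of 0.72 (rho 0.64, permutation p 0.00028 for r and 0.00189 for rho), also 0.72 without the 2 farthest mice and without P_1. Adgre1 and Mrc1 had an r of 0.78 (rho 0.71, permutation p 5e-05 for r and 0.00028 for rho), and 0.67 without the 2 farthest mice and without P_1. Hmox1 and Slc40a1, the enzyme that frees iron and the protein that exports it, had an r of 0.79 over 22 mice (permutation p 0.00195, adjusted 0.00670) and a rho of 0.46 (permutation p 0.0334, adjusted 0.0798). The size of the pooled r depended on P_1, since r was 0.32 without the 2 farthest mice and 0.38 without P_1. Within groups r differed in sign, at -0.70 in diseased, 0.80 in non-diseased Bim-deficient and 0.91 in transgene-only mice. It was 0.65 within the mice with SRBC alone and -0.26 within the irradiated mice. P_1 is in the transgene-only group alone, so the values of the other sets did not rest on it. The values within sets were not tested.

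**Figure D5:**
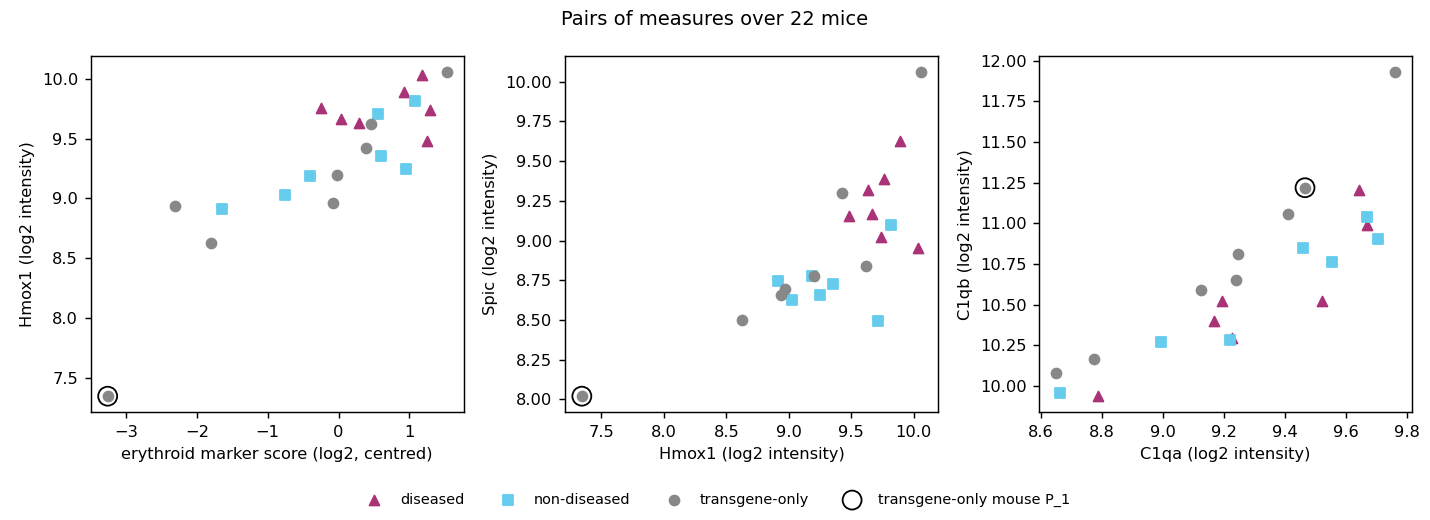
Hmox1 against the erythroid score, Spic against Hmox1 and C1qb against C1qa, in log2 intensity (the score in log2 units around 0), 1 point per mouse, coloured by group, with transgene-only mouse P_1 ringed. C1qb is higher where C1qa is higher in each group, whereas the diseased mice cluster at high Hmox1 without a clear slope.

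The genes whose levels over the 22 mice were most like each member, out of 14490 other named genes, are given as a description. Spic was most like Treml4 (r 0.88, and 0.84 without P_1), Gm5150 and Ear3, and Hmox1 most like Gpx1 (0.89, and 0.87 without P_1), Treml4 and Paqr9. Gpx1 codes for an antioxidant enzyme that is abundant in red blood cells. Mrc1 was most like C6 (0.95, and 0.92 without P_1), Itgad (0.92), which codes for the integrin CD11d of red pulp macrophages, and Slc45a3 (0.88). Slc40a1 was most like the haemoglobin genes Hba-a1, Hbb-bt and Hbb-bs, each at 0.94, but at 0.38, 0.33 and 0.21 without P_1, so the likeness rested on that mouse. Vcam1 was most like Gstp2 (0.77), Tcim and Klre1, Adgre1 most like Ear3 (0.82), Kcnj16 and Tmem141, and Cd163 most like Tmem141 (0.83), Kcnk13 and Pid1. C1qa was most like the chemokine gene Ccl4 (0.79), Tspan4 and Pla2g15, C1qb most like Rgs1 (0.81), P2ry4 and the receptor gene Cd14, and C1qc most like Pla2g15 (0.81), Nr1h3, which codes for the oxysterol receptor LXR alpha, and Clec4a3.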

How the data were processed

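Spleen RNA was measured on Illumina bead arrays with biotin label, 1 array for each of the 22 mice. The authors deposited normalized log2 intensities, which were used as given: the sorted values are the same in all 22 arrays, to within 0.05 on the log2 scale, which is what quantile normalization does. The log base was read from the values, and no source used here names the software or the background correction. A deposited table of unnormalized values was not used, because its 44 per-sample columns carry names that match no mouse, so the planned neqc normalization of it was not run. The array's 45281 probes were named from its annotation (34885 with 1 gene, 18 with several, 10378 with none).

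A probe was kept where at least 7 of the 22 arrays had it above their 40th percentile (30013 probes), and the probe with the highest mean stood for a gene, which gave 20463 features. Groups were fitted with limma 3.58.1 in R 4.3.3 (lmFit, eBayes), with Benjamini-Hochberg adjustment over all features and a threshold of 0.05. Stimuli were fitted beside the group, and the interaction over the 9 combinations of group and stimulus. The procedure was tested on simulated data. Single probes were compared by exact permutation of mice. The number of arrays limits the precision. Alternatives were other filters, array weights, covariates and leaving out mice. The members, lists and tests were chosen with earlier results of these data known. Named genes were the 10 members, list genes past the threshold, and the 3 genes most like each member. Nkx2-3, Tcf21, Glycam1 and Lyve1, and those the mouse plot adds to them, were named after their values were seen. Mouse numbers were not treated as pairs across groups. In deviations from the group means, same-numbered mice correlated at -0.35 to 0.66, and 3 of 20 matched best with their own number. This check uses expression alone and cannot exclude that the numbers pair mice.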

Additional observations from a re-analysis of the deposited data

Results flagged for a closer look

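Of 54 groups of probe values checked for a single mouse far from its group, 4 had one, and chance alone gives about 1 in 20. Transgene-only mouse P_1 was the lowest of its group by a wide gap in Slc40a1 (8.47), Mrc1 (7.31) and Cd163 (6.46). The fourth was transgene-only mouse P_2, the highest of its group in an Adgre1 probe close to background, at 6.68.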

How the results depend on the processing

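None of the 10 genes passed in any comparison of the 22 mice. Between diseased and non-diseased Bim-deficient mice, 1 passed without the pristane mice and 1 without transgene-only P_1 and P_2, Spic in both. Between diseased and transgene-only mice, 2 passed with array weights, 2 without the pristane mice and 2 without P_1 and P_2, each time Spic and Hmox1. Leaving out 1 mouse gave 0 to 2 there and 0 to 2 in the interaction, the 2 without transgene-only P_2. With the combination of stimulus and replicate number as a block, 1 passed between diseased and transgene-only mice (Hmox1, 0.83, limma adjusted p 0.0403). This block called none of the 10 in the other group comparisons. The stimulus comparisons were blocked on the replicate number alone, and none of the 10 passed there. Whether the numbers pair mice is not known. Between pristane and SRBC alone, 1 passed without transgene-only P_1 and diseased I_1 (Slc40a1, 0.49, of opposite sign to the 22 mice). The number of all features called between diseased and non-diseased Bim-deficient mice was 374, against 745 with array weights, 91 with only those groups fitted, 806 without the pristane mice and 141 to 692 on leaving out 1 mouse (141 without diseased A_1, 163 without I_1, 164 without A_2 and 692 without P_1, and without non-diseased P_2 167, A_1 178, and I_1 or I_3 222 each). Between diseased and transgene-only mice it was 1069, against 2618 with array weights, 2690 without the pristane mice and 576 to 1960 on leaving out 1 mouse (diseased A_2 576, A_1 615 and I_1 696, transgene-only I_3 684, A_2 707 and P_2 1960). Between pristane and SRBC alone it was 3, against 0 to 1450 (1417 without transgene-only P_1 and 394 without diseased P_1), and between pristane and irradiation 57, against 0 to 1817 (1811 without transgene-only P_1, 491 without diseased P_1, and at most 45 without any other single mouse). The interaction called 0, against 0 to 653 (319 without transgene-only P_2, 182 without P_1 and 67 without non-diseased P_2). The cause of these changes was not tested. Xist as a covariate altered no call among the 10 genes. Each combination of group and stimulus holds 1 to 3 mice, which limits the stimulus and interaction results. Dim probes close to the array median carry little signal.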
